A study of Mus musculus with 6 samples.

Results

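The coactivator gene Yap1, the TEAD factor genes Tead1, Tead2 and Tead4, and 6 genes widely used as readouts of YAP activity (Ccn1, Ccn2, Ccn5, Ankrd1, Thbs1 and Amotl2) are described here in cultured mouse myoblasts. They are 10 of the 18193 genes that the array annotation names by a probe set with exactly 1 symbol. A probe set is the group of short probes that gives 1 value per array. All probe sets annotated to these genes were taken, 19 of 45037, among them 1 that lists Thbs1 together with Pald1. The annotation writes the 3 CCN genes, formerly Cyr61, Ctgf and Wisp2, by their current symbols.

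The cells were C2C12, a mouse line that can withdraw from the cycle without adhesion and can fuse into myotubes. Knockdown cells were a stable pool transfected with PRDM2 shRNA, and control cells a stable pool transfected with GFP shRNA, with 3 arrays in each group (PRDM2 KD S48 and GFP S48 in the labels). All 6 cultures had been held for 48 hours in methyl cellulose suspension with 20% fetal calf serum to arrest them in G0. Each group is thus 1 selected pool of 1 line, the labels call its arrays biological replicates, and p-values measure the spread between these arrays.

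YAP binds no DNA by itself and acts through TEAD factors, which recognise a short motif first known from muscle promoters as the MCAT element. The Hippo kinases MST and LATS phosphorylate YAP and hold it out of the nucleus, and loss of adhesion, as in suspension culture, is a known trigger of that step. In myoblasts YAP activity is associated with proliferation, while TEAD factors also act at genes of differentiated muscle. RNA levels as measured here do not show where the YAP protein lies or whether it is phosphorylated.

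The upstream sequences of 4 members are shown because each holds the TEAD motif, CATTCC or its reverse complement GGAATG. They are the 250 bases before the gene's start in RefSeq on GRCm38.p6, 5′ to 3′ on the gene's strand, with the motif in capitals. The Ankrd1 window lies at chr19:36119845-36120094 on the minus strand, that of Ccn1 at chr3:145649986-145650235 on the minus strand, that of Amotl2 at chr9:102717554-102717803 on the plus strand, and that of Yap1 at chr9:8004597-8004846 on the minus strand.
Ankrd1: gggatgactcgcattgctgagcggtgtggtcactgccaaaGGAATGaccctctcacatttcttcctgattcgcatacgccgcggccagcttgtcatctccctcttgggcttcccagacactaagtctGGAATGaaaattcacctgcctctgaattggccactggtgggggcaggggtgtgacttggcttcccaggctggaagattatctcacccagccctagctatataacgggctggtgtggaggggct
Ccn1: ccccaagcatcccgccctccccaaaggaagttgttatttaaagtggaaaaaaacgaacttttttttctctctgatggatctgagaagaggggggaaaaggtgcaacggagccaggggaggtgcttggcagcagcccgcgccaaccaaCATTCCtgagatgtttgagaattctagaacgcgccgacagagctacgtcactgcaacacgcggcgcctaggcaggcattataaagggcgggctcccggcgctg
Amotl2: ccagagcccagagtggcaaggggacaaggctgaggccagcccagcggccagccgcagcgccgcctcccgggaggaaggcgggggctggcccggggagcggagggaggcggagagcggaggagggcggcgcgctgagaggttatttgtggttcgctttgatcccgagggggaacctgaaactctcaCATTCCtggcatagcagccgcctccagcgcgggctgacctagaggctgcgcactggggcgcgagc
Yap1: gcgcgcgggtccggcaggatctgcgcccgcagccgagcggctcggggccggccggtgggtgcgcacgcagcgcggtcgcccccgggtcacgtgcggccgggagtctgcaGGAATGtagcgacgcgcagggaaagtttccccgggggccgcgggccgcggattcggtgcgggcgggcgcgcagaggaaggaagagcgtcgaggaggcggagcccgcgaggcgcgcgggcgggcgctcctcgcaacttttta

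Ankrd1 had 2 matches, which span bases 210 to 205 and 123 to 118 upstream of the start. Ccn1 had 1 match at bases 103 to 98, Amotl2 1 at bases 65 to 60, and Yap1 1 at bases 141 to 136. The window of Tead2, the other member matched in the table, held none, so that 4 of 5 member windows had a match. Among all 32851 windows of this length, 12.6% held at least 1 match on either strand and 0.992% held 2 or more. The CArG box, the motif of serum response factor, was in 0 of the 5 member windows and in 1.47% of all windows. A match describes these letters and does not show that a factor was bound.

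**Figure D1:**
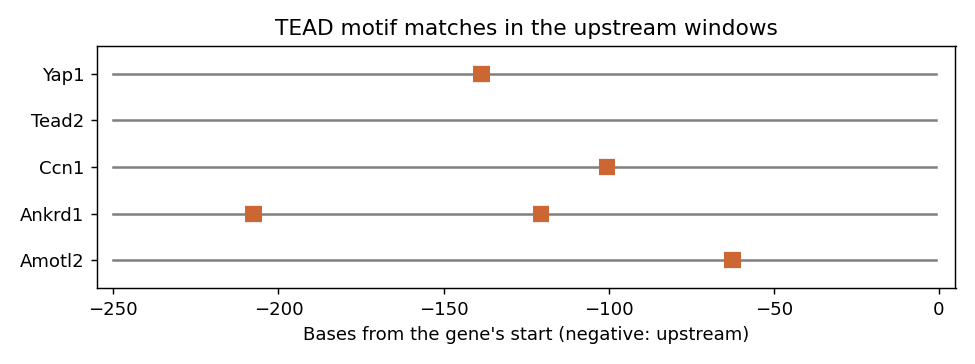
Positions of the TEAD motif in the 250 bases upstream of 5 member genes. The x axis gives bases from the gene's start, grey lines are the windows and orange blocks are matches: 2 in Ankrd1, 1 each in Ccn1, Amotl2 and Yap1, and 0 in Tead2.

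Prdm2, which the shRNA targets, had intensities of 47.1 to 86.2 in the control and 29.0 to 58.0 in the knockdown at its brightest probe set. The groups overlapped, and the log2 difference of -0.51 missed the threshold (limma adjusted p = 0.441). Median intensity was 10.6 to 12.1 on the 6 arrays, and 55.1% to 58.2% of probe sets read under 16, which is used below as a mark of dim signal. Control array 3 had a Gapdh 5' to 3' ratio of 0.0992, against 0.704 to 1.14 on the others, a measure of how complete the labelled RNA is. The Dap spike, a bacterial poly-A control RNA, read 38.8 and 39.9 on the arrays numbered 3 and 126 to 254 on the other 4, which are called the lower and the higher spike arrays below, sets defined by this signal and not by the labels. Prdm2 read 86.2 and 73.6 against 58.0 and 51.5 in the higher set, control first, where the groups lay apart. In the lower set it read 47.1 against 29.0, where 1 array per group cannot show whether the groups overlap. Muscle identity was checked on marker lists. Of 8 myoblast markers 6 had a mean of at least 16 in both groups, while Pax7 and Msc were below it in both. Myf5, 1 of the 8, fell (log2 difference -1.29, limma adjusted p = 0.0229), beside 1.63% of all genes. The summed signal of 16 myotube markers was 325 to 634 on control arrays and 10733 to 13088 on knockdown arrays. Of the 16, 14 rose, beside 2.24% of all genes. Myh8 and Ckm did not pass, with Ckm at -0.58 at its brightest probe set, 1444643_at. At the other Ckm probe set, 1417614_at, the mean went from 13.9 to 186 and the call was a rise by 2.69 (limma adjusted p = 0.00209).

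In the knockdown cells Ankrd1 and Thbs1 rose strongly, Ccn5 fell, and Yap1, Tead1, Tead2, Ccn1, Ccn2 and Amotl2 did not pass the test. Of the TEAD genes Tead4 rose by 0.47 on the log2 scale at 1 of its probe sets, with signal under 16 on all arrays. Ankrd1 was 5.36-fold higher and Thbs1 7.65-fold higher at their brightest probe sets with 1 symbol, whereas Ccn5 was 2.39-fold lower. Ccn2 differed in the direction of Ccn5, with knockdown arrays at 23.0% of the control mean, but its control arrays varied too widely for it to pass. Of the 19 member probe sets 5 rose and 1 fell at a limma adjusted p under 0.05, and they belong to 4 of the 10 genes. Over all 45037 probe sets, 1.42% rose and 1.01% fell. Leaving out 1 array left 2 to 6 member probe sets past the threshold, and 0 passed in the 4 higher spike arrays alone. In those 4 arrays 9 member probe sets reached an unadjusted p under 0.05 in limma, against 4338 of all 45037. Folds and log2 changes are of quantile normalized log2(intensity + 16), which understates changes of dim genes. The remaining 13 probe sets had positive differences in 7 cases and negative in 6. The deposited values of the groups did not overlap at 12 of the 19, against 17.1% of all probe sets.

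**Figure D2:**
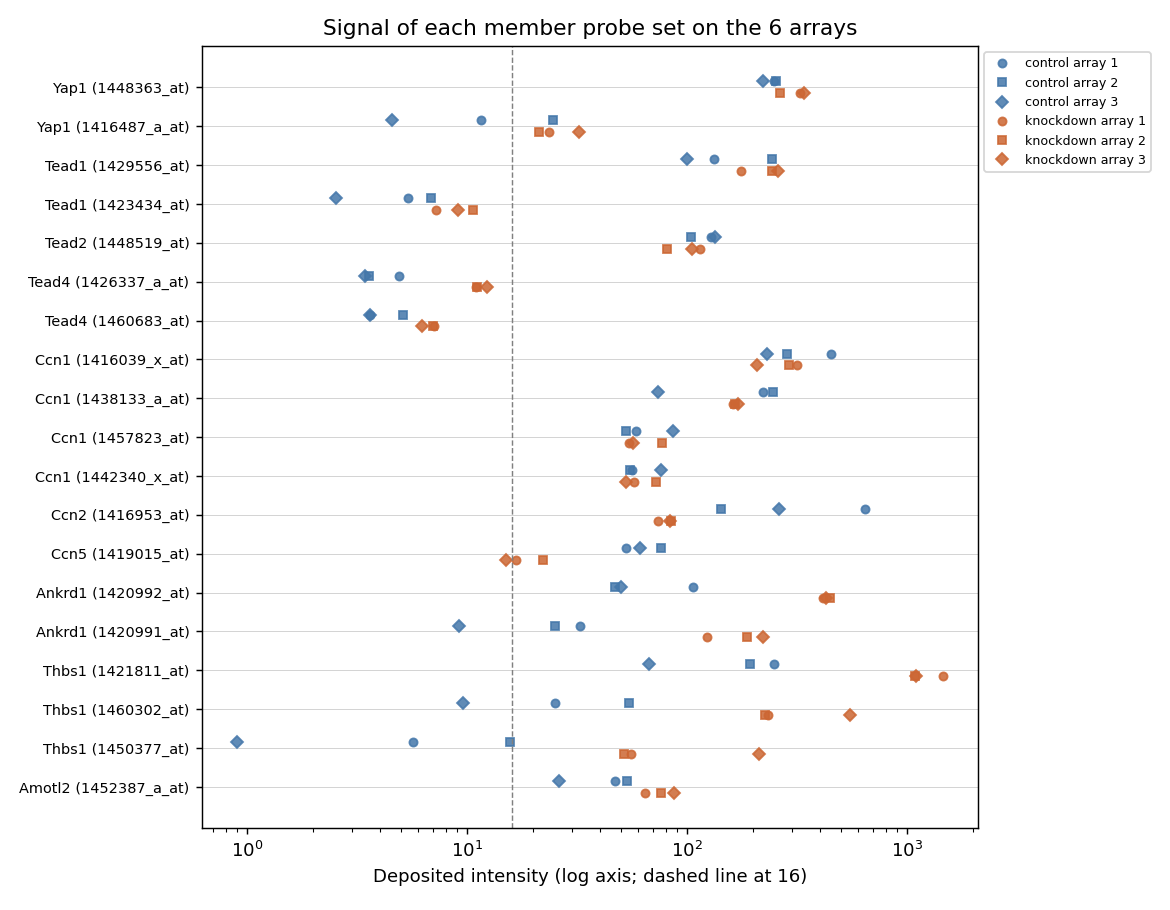
Deposited intensity (x axis, log scale) of the 19 member probe sets on each control (blue) and knockdown (orange) array, with a dashed line at 16. The groups lie apart for Ankrd1, Thbs1, Ccn5 and Ccn2, overlap for all 4 probe sets of Ccn1, and both Tead4 probe sets stay below 16 on all arrays.

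Yap1 encodes the coactivator itself. Its bright probe set, 1448363_at, gave 247, 252 and 220 for control arrays 1 to 3, in this order as in all values below, and 326, 264 and 338 for the knockdown arrays. All knockdown values lay above all control values, by a margin that was small for knockdown array 2. The means were 240 ± 17.3 and 309 ± 39.5 (SD, n = 3 each), and the log2 difference of 0.25 (SE 0.107) did not pass (limma adjusted p = 0.453). The dimmer probe set 1416487_a_at read 4.55 to 24.6 in the control and 21.2 to 32.1 in the knockdown, with overlapping groups and a log2 difference of 0.57 (limma adjusted p = 0.426).

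Of the TEAD factors, which carry YAP to DNA, Tead1 and Tead2 gave clear signal. Tead1 read 133, 244 and 100 on the control arrays and 175, 243 and 258 on the knockdown arrays at 1429556_at. The groups overlapped through control array 2, and the difference of 0.44 (SE 0.279) did not pass (limma adjusted p = 0.683). Its other probe set, 1423434_at, stayed under 11 on all arrays and did not pass either (log2 difference 0.27). Tead2 went the other way without passing, at 129, 104 and 135 in the control and 114, 81.0 and 105 in the knockdown (log2 difference -0.34, SE 0.178, limma adjusted p = 0.574).

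Tead4, a TEAD factor induced during muscle differentiation, was dim at both probe sets. At 1426337_a_at it read 4.91, 3.59 and 3.43 in the control and 11, 11.1 and 12.3 in the knockdown. The groups lay clearly apart but below 16 on all 6 arrays, and the probe set rose by 0.47 (SE 0.0783, limma adjusted p = 0.038). This call was lost without any 1 of the 6 arrays, with limma adjusted p of 0.104 to 0.151, and with the higher or lower spike set as a block (limma adjusted p = 0.0662). The other probe set, 1460683_at, had means of 4.11 ± 0.860 and 6.79 ± 0.484, which also lay apart, and a difference of 0.19 that did not pass (limma adjusted p = 0.415).

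Ankrd1 encodes a cardiac and skeletal muscle ankyrin repeat protein that binds titin and also enters the nucleus, and it is a classic YAP target. At 1420992_at it read 106, 47.1 and 49.9 on the control arrays and 414, 444 and 427 on the knockdown arrays. The knockdown arrays agreed closely with each other, and the control spread came from control array 1. The means were 67.7 ± 33.1 and 428 ± 15.2 (SD, n = 3 each), and Ankrd1 rose by 2.42 (SE 0.253, limma adjusted p = 0.00783). Without each array in turn the limma adjusted p stayed between 0.00637 and 0.0494. The second probe set, 1420991_at, read 32.6, 25.2 and 9.20 in the control and 123, 187 and 222 in the knockdown. It rose by 2.33 (SE 0.304, limma adjusted p = 0.0171), and without knockdown array 2 or 3 the limma adjusted p was 0.0804 or 0.0745. Within the higher spike arrays the differences were 2.35 and 1.90, and between the lower spike arrays 2.57 and 3.19. Ankrd1 is also made in differentiated muscle, and the myotube marker sum given above moved with it. The part of that shift in the rise was not tested, and in bulk RNA more cells of a type and more RNA per cell cannot be told apart.

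Thbs1 encodes thrombospondin 1, a secreted matrix protein that releases TGF-beta from its latent form. At 1460302_at it read 25.0, 54.3 and 9.61 on the control arrays and 232, 227 and 552 on the knockdown arrays. Every knockdown value lay far above every control value, and knockdown array 3 was the highest. It rose by 2.94 (SE 0.460, limma adjusted p = 0.0306), but without any 1 array other than control array 2 the limma adjusted p was 0.0745 to 0.122, and with the spike set as a block it was 0.0607. The probe set 1421811_at, which lists Pald1 as well, read 249, 194 and 67.3 in the control and 1449, 1082 and 1093 in the knockdown. Signal from the 2 genes cannot be told apart there. It rose by 2.83 (SE 0.364, limma adjusted p = 0.0163), and without knockdown array 1, 2 or 3 the limma adjusted p was 0.0879, 0.0694 or 0.0761. The third, 1450377_at, read 5.69, 15.7 and 0.904 in the control and 55.8, 51.6 and 213 in the knockdown. Its groups lay apart too, but its difference of 2.18 (SE 0.500) did not pass (limma adjusted p = 0.109).

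Control array 3, with the low Gapdh 5' to 3' ratio, was the lowest of the 6 at each Thbs1 probe set. Within the higher spike arrays, which leave it out, the 3 Thbs1 differences were 2.43 at 1421811_at, 2.18 at 1460302_at and 1.41 at 1450377_at. Between the 2 lower spike arrays they were 3.61, 4.45 and 3.72 in the same order. The direction was thus shared, and the difference was larger between the lower spike arrays, where 1 array per group allows no test.

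**Figure D3:**
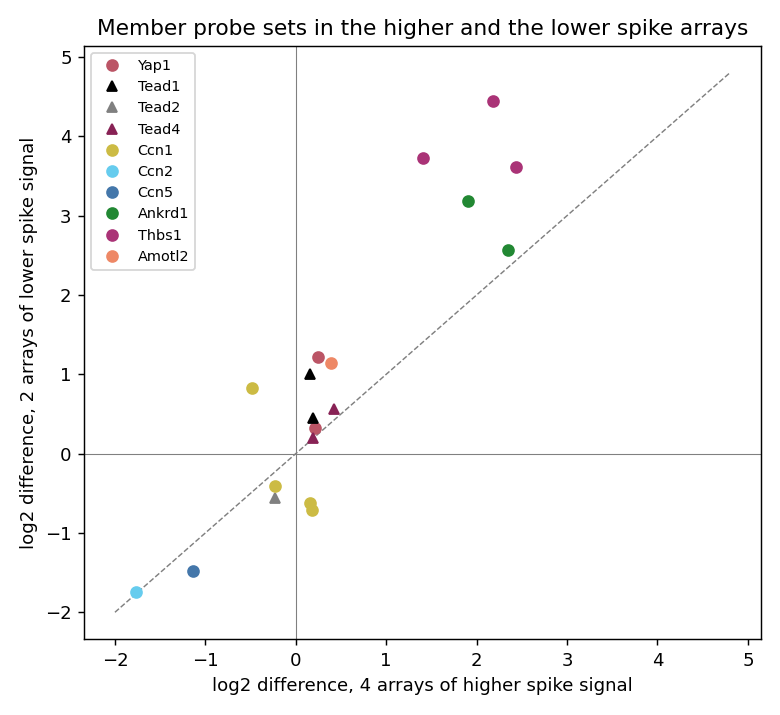
log2 difference, knockdown minus control, of the 19 member probe sets within the 4 higher spike arrays (x axis) against that between the 2 lower spike arrays (y axis). The dashed line marks equal values. The 3 Thbs1 probe sets lie above it, Ccn2 lies on it at -1.76 and -1.74, and 3 of the 4 Ccn1 probe sets differ in sign between the higher and the lower spike arrays.

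The 3 CCN genes encode small secreted proteins that bind integrins and growth factors at the cell surface. Ccn1 and Ccn2 are among the most used readouts of YAP and TEAD activity, while Ccn5 lacks the C-terminal domain of the other two. Ccn5 fell, and neither Ccn1 nor Ccn2 passed. Ccn2 read 645, 143 and 262 on the control arrays and 74.1, 84.1 and 83.4 on the knockdown arrays. The knockdown arrays were nearly equal and all lay below the lowest control array. The means were 350 ± 262 and 80.5 ± 5.60 (SD, n = 3 each), and the log2 difference of -1.76 (SE 0.477) did not pass (limma adjusted p = 0.173). Without control array 2, the lowest of its group, it passed at a difference of -2.28 (limma adjusted p = 0.0254), and without control array 1 the difference was -1.25 (limma adjusted p = 0.225).

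Ccn5 read 52.6, 75.7 and 61.3 in the control and 16.7, 22.2 and 15.0 in the knockdown. The groups were far apart relative to their spread, and 1 knockdown array read under 16. The means were 63.2 ± 11.7 and 18.0 ± 3.79, which is 28.4% of the control, and Ccn5 fell by 1.26 (SE 0.130, limma adjusted p = 0.00755). Without knockdown array 1 the limma adjusted p was 0.0541, and without any other array it was 0.0161 to 0.0436. Within the higher spike arrays the difference was -1.14 and between the lower ones -1.49.

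Ccn1 had 4 probe sets, and none of them passed. At the brightest, 1416039_x_at, whose suffix marks probes that may match other transcripts, it read 451, 285 and 231 in the control and 317, 292 and 208 in the knockdown. The groups overlapped, with control array 1 above and knockdown array 3 below all others (log2 difference -0.28, SE 0.227, limma adjusted p = 0.769). The other 3 probe sets had differences of -0.05, -0.12 and -0.10, each with overlapping groups and a limma adjusted p of at least 0.922. The 95% confidence interval of the change at 1416039_x_at ran from -0.83 to 0.26, and that at 1438133_a_at from -0.86 to 0.77. The change of Ankrd1 lay outside both, and the difference between the 2 genes was not tested.

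Amotl2 encodes an angiomotin family scaffold that is induced by YAP and in turn binds and restrains it. It read 47.0, 53.2 and 26.2 in the control and 64.5, 76.4 and 87.5 in the knockdown. Every knockdown array was above every control array, but the difference of 0.64 (SE 0.172) did not pass (limma adjusted p = 0.173). It was 0.38 within the higher spike arrays and 1.14 between the lower ones.

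**Figure D4:**
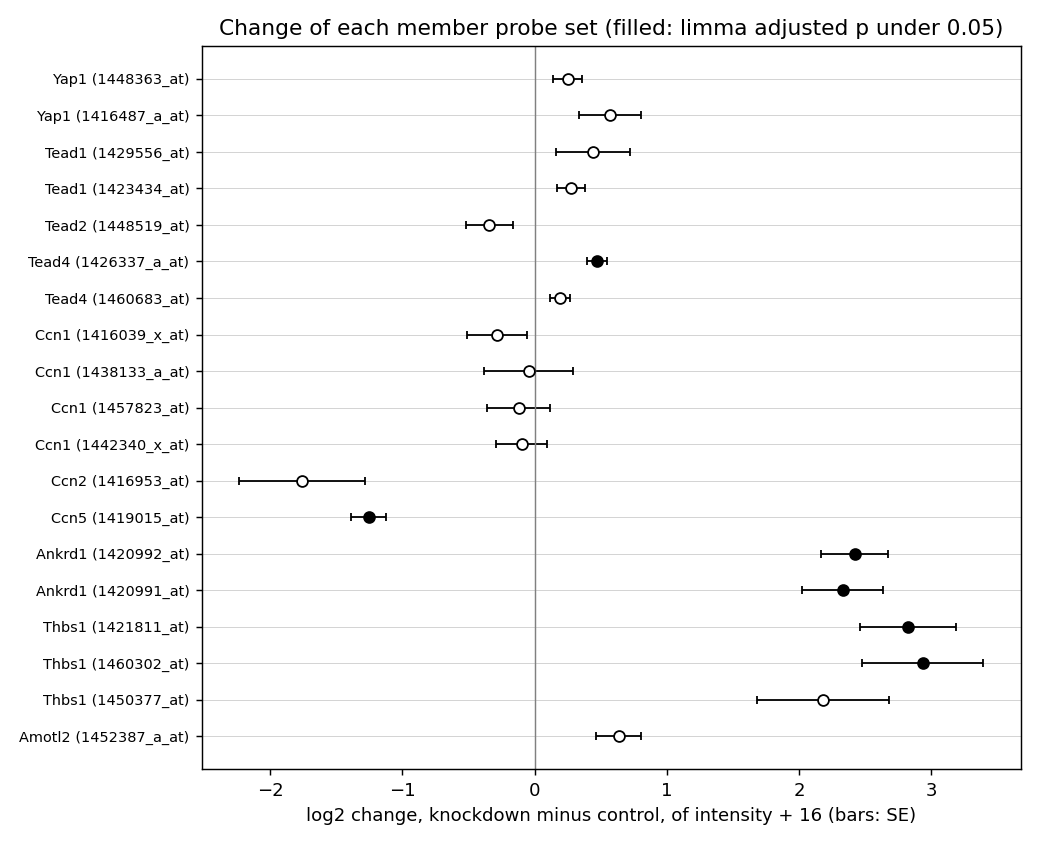
log2 change, knockdown minus control, of each member probe set on the log2(intensity + 16) scale, with SE. Filled points passed at a limma adjusted p under 0.05: the rise of Ankrd1 (2.42 and 2.33), Thbs1 (2.83 and 2.94) and Tead4 (0.47), and the fall of Ccn5 (-1.26).

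The rest of the pathway was read from 6 lists with 84 measured genes other than the members, each counted once and taken at its brightest probe set. Of these 9 rose, 5 fell and 70 did not pass, with a median log2 change of 0.14. Over all 18193 genes 2.24% rose and 1.63% fell, and the median was -0.004. Among the 10 members counted in the same way 3 rose, 1 fell and 6 did not pass.

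Among 12 measured kinases and scaffolds of the core pathway 0 rose and 0 fell, beside 2.24% and 1.63% of all genes, a share that does not set these 12 apart, with a median of -0.02, which was 0.06 without normalization and 0.08 with median scaling. Lats1 and Lats2, the kinases that phosphorylate YAP, had differences of -0.05 and 0.31. Mob1a, the LATS activator, read 406 ± 99.9 and 446 ± 32.2 (SD, n = 3 each, log2 difference 0.08), and Sav1, the scaffold of the MST kinases, 408 ± 149 and 395 ± 68.9 (log2 difference -0.07). With limma 0 of the 12 reached an unadjusted p under 0.05, against 2928 of all 18193 genes, and 0 passed without each array in turn.

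Of the 6 genes listed as YAP and TEAD cofactors, among them the TEAD factor gene Tead3, only Vgll3 rose. It encodes a vestigial-like cofactor that binds TEAD factors at the surface that YAP also uses. Its brightest probe set, 1430596_s_at, read 9.63, 6.81 and 7.83 in the control and 75.7, 74.1 and 39.7 in the knockdown. All control arrays were dim and all knockdown arrays were not, and it rose by 1.65 (SE 0.197, limma adjusted p = 0.0124). Both of its other probe sets rose too, the brighter of them by 1.68 (limma adjusted p = 0.00198). The remaining 5 genes of this list did not pass, and 0 fell, beside 2.24% up and 1.63% down over all genes. Wwtr1, which encodes the YAP relative TAZ, had means of 666 ± 195 and 839 ± 106 (log2 difference 0.30), and its other probe sets had differences of -0.17 and -0.28 without passing. Tead3 had means of 34.9 ± 1.75 and 56.4 ± 2.22 that lay apart (log2 difference 0.46, limma adjusted p = 0.122). Without control array 1 or 3 or knockdown array 1 or 2 the limma adjusted p of Vgll3 at 1430596_s_at was 0.0509 to 0.0653.

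Upstream of the kinases 1 of 18 measured genes rose, 1 fell and 16 did not pass, beside 2.24% up and 1.63% down over all genes. With limma 8 of the 18 reached an unadjusted p under 0.05, against 2928 of all 18193 genes. Deposited values of the groups did not overlap at 11 of the 18, against 3842 of all genes. Frmd6, a FERM domain protein that activates the Hippo kinases, read 456, 432 and 502 in the control and 184, 249 and 179 in the knockdown, and fell by 1.23 (SE 0.190, limma adjusted p = 0.0295). Tjp1, the junction protein ZO-1, rose by 0.76 from 443 ± 91.3 to 788 ± 51.7 (limma adjusted p = 0.0173). Wwc1, the Hippo activator Kibra, stood at the threshold. Its brightest probe set had means of 111 ± 23.5 and 29.7 ± 12.9 and a difference of -1.55 (limma adjusted p = 0.0501), and another fell by 1.12 (limma adjusted p = 0.00912). The further probe sets of Wwc1, with means under 16, differed by -0.05 and -0.04 without passing. Wwc1 was named after its values were seen. Frmd6 lost its call without any array other than control array 2 or knockdown array 2, with limma adjusted p of 0.0697 to 0.134, and Tjp1 without any array other than control arrays 2 and 3, with 0.0678 to 0.0915.

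Other genes that have been used as YAP targets moved in both directions. Of 24 measured 2 rose, 3 fell and 19 did not pass, with a median of 0.03, beside 2.24% up and 1.63% down over all genes. With limma 11 of the 24 reached an unadjusted p under 0.05, against 2928 of all 18193 genes. Nt5e, the ecto-nucleotidase CD73, fell by 3.48 and Igfbp3, an IGF binding protein, by 3.15. Birc5, which encodes survivin and is also a gene of mitosis, fell by 2.60. F3, tissue factor, read 81.1, 115 and 36.9 in the control and 358, 301 and 285 in the knockdown, and rose by 1.84 (SE 0.276, limma adjusted p = 0.0265). Ccdc80, a secreted matrix protein named after its values were seen, rose by 0.67 at 1 probe set and differed by 0.17 without passing at its other. At the further probe sets of Nt5e the differences were 0.26 and -0.66 without passing. Without 1 array Nt5e and Birc5 kept their calls. Igfbp3 had a limma adjusted p of 0.0550 to 0.0652 without any 1 of the knockdown arrays, F3 of 0.0973 to 0.126 without control array 1 or any knockdown array, and Ccdc80 of 0.0836 to 0.143 without any array other than control array 3.

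None of the 7 relatives of the secreted targets passed, beside 2.24% up and 1.63% down over all genes. This share does not set the 7 apart. Thbs2 had means of 271 ± 136 and 155 ± 8.71 (log2 difference -0.69) and Ccn4 of 142 ± 34.8 and 97.2 ± 3.15 (log2 difference -0.54), both without passing. Both relatives of Ankrd1 rose, beside 2.24% of all genes. Ankrd2 rose by 0.75 (SE 0.0815, limma adjusted p = 0.00912) from 5.63 ± 1.13 to 20.1 ± 0.899, and Ankrd23 by 1.07 (SE 0.171, limma adjusted p = 0.0334) from 6.57 ± 2.73 to 32.3 ± 10.5. Both encode titin-binding ankyrin repeat proteins of muscle, and both were dim on all control arrays. Without any 1 array the limma adjusted p of Ankrd23 was 0.0600 to 0.115, and that of Ankrd2 was 0.0598 without knockdown array 1.

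Serum response factor and its MRTF cofactors share several targets with YAP. This list had 3 of 18 genes up, 1 down and 14 not passing, beside 2.24% up and 1.63% down over all genes. With limma 8 of the 18 reached an unadjusted p under 0.05, against 2928 of all 18193 genes. Myl9, a myosin regulatory light chain, rose by 2.49, Tagln by 2.27 and Fhl1, a LIM domain protein of muscle, by 2.21. Another probe set of Fhl1 differed by -0.30 without passing. Mrtfb, an MRTF cofactor, fell by 0.97 from 435 ± 101 to 225 ± 24.0 (limma adjusted p = 0.0215). Its further probe sets, with means under 16, differed by -0.41 and -0.20 without passing. Srf, with means of 99.2 ± 10.6 and 149 ± 15.9, did not pass (log2 difference 0.42). Myl9, Tagln and Fhl1 passed without each array in turn, whereas Mrtfb had a limma adjusted p of 0.0526 to 0.104 without any array other than control array 2.

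**Figure D5:**
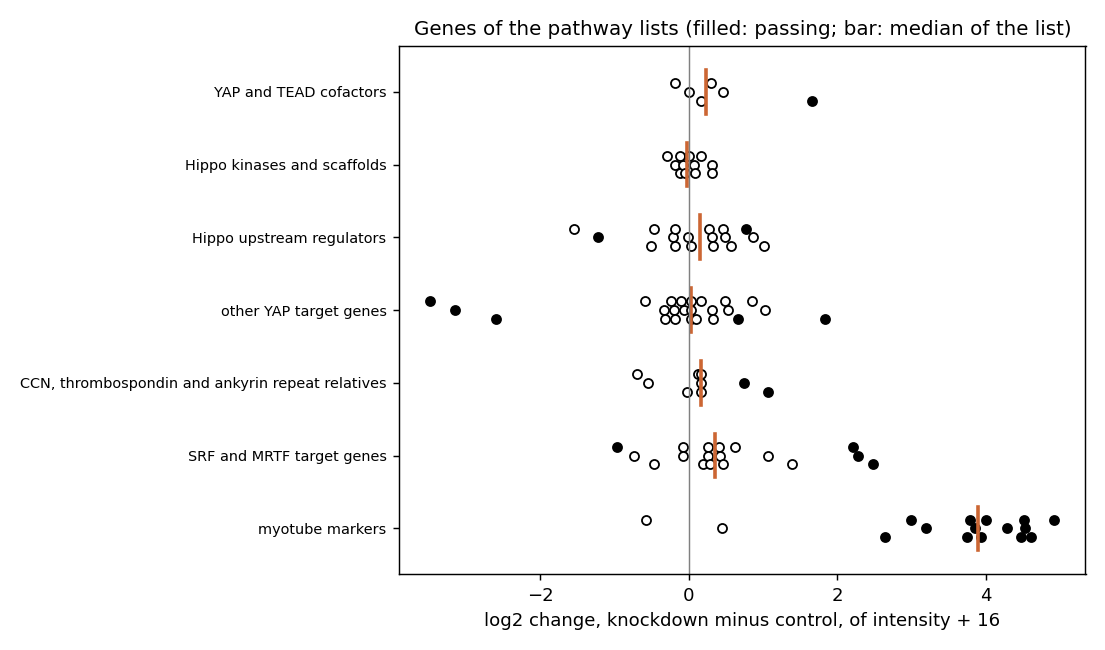
log2 change of the genes of 6 pathway lists and of 16 myotube markers, each at its brightest probe set, with the list median as an orange bar. Filled points passed. The kinase and scaffold list has 0 filled points and a median of -0.02, the other YAP targets have 2 to the right and 3 to the left, and 14 of 16 myotube markers lie at the far right with a median of 3.89.

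Markers of other cell types were read beside these lists. Of 7 fibroblast markers 2 had a mean of at least 16 in each group, and the summed signal was 225 to 521 in the control and 523 to 694 in the knockdown. Those 2 were Pdgfra, with means of 231 and 381 (log2 difference 0.71, limma adjusted p = 0.395), and Dcn, with means of 103 and 178 (log2 difference 0.55, limma adjusted p = 0.674). Dpt, Lum and Col15a1 had means under 5 in both groups. Adipocyte markers summed to 9.94 to 24.3 and 17.7 to 24.7, endothelial ones to 45.0 to 92.1 and 43.1 to 71.7, and blood cell ones to 48.1 to 99.0 and 47.1 to 52.6. The brightest of each list were Fabp4 with means of 13.4 and 16.6, Emcn with 56.1 and 43.7, and Adgre1 with 33.0 and 25.6, whereas the defining markers Adipoq, Pecam1 and Ptprc had means below 3 in both groups. Cd68 had means of 24.9 and 13.0. By limma 0 genes of these 4 lists passed, and 1, Pdgfra, reached an unadjusted p under 0.05, against 2928 of all 18193 genes. Without control array 2 Pdgfra passed, at a difference of 1.02 (limma adjusted p = 0.0395). These markers were named after their values were seen. Their part in the results was not tested.

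The genes closest to each changed member were found by the root mean square distance between profiles over the 6 arrays, as log2 values minus the control mean, among 6935 genes with a group mean above 64. Closest to Ankrd1 were Tagln (0.14), Myl9 (0.22) and Fhl1 (0.22). For instance, Tagln read 70.8, 35.6 and 29.9 in the control and 275, 267 and 298 in the knockdown, with the same high control array 1. Closest to Thbs1 were Cebpa (0.26), Thbd (0.48) and Itgb1bp2 (0.49), and of these Cebpa and Itgb1bp2 also read highest on knockdown array 3. Closest to Ccn5 were Cdc42ep2 (0.14), Runx3 (0.14) and Smc2 (0.15). For the dim Tead4, Zfp451 (0.02), Slc30a7 (0.04) and Usp28 (0.05) were closest. These distances describe 6 arrays in 2 groups, so that any gene with a change of like size comes near.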

How the data were processed

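RNA of 6 C2C12 cultures was measured on Affymetrix mouse arrays from biotin-labelled cRNA, per the labels' protocols. Each array's deposited column holds a linear intensity for every probe set. The submitters' processing notes list GCOS and PLIER, whose settings are not given in the sources used here. Affymetrix controls (64 probe sets) were not tested, and 0 columns belonged to other samples. Intensities were transformed as log2(intensity + 16), quantile normalized, and fitted in limma 3.58.1 (R 4.3.3) with lmFit and eBayes over all 45037 probe sets, with Benjamini-Hochberg adjustment over all of them. Counts of genes use the probe set of highest mean among the 34945 with exactly 1 symbol; 932 list several symbols and 9160 none. An earlier gene-wise fit of these data is an alternative here, so adjusted p-values differ from it.

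All member probe sets are named, with up to 4 passing genes of each list by size of change, or the 2 brightest where none passed, and the 3 genes nearest in profile to each changed member. Other list genes were named after their values were seen. The members, lists and alternatives were chosen with earlier results of these data known. The listed gene Stk3 was not analysed here. The number of arrays limits the precision, and 3 arrays against 3 cannot give an exact permutation p under 0.1, so none is given. Alternatives changed the offset, the normalization, the variance model, the low-value filter and the array weights, and tried genes in place of probe sets, the replicate number or the spike set as a block, the higher spike arrays alone, the Gapdh ratio as a covariate and leaving out each array. Upstream windows come from the RefSeq promoter table, which matched 5 of the 10 members.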

Additional observations from a re-analysis of the deposited data

How the results depend on the processing

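Over 349 recomputed values of the member probe sets, 306 kept their side of the threshold, 37 calls were lost, 6 were gained and 0 called values changed sign. Ankrd1 at 1420992_at passed under 17 of 19 alternatives, Ccn5 under 16 of 19, Thbs1 at 1421811_at under 13 of 18 and at 1460302_at under 8 of 19, and Tead4 at 1426337_a_at under 7 of 18. Ccn2 passed under 2 of 19 and Thbs1 at 1450377_at under 4 of 18. Yap1, Tead1, Tead2, Ccn1 and Amotl2 passed under 0 alternatives, with limma adjusted p from 0.11 to 0.998. Counts that moved by over 1.5 times follow as all probe sets, member probe sets and genes of the pathway lists. With ordinary statistics in place of moderated ones they were 161, 0 and 2 (4664, 11 and 29 at an unadjusted p under 0.05), and in the 4 higher spike arrays alone 184, 0 and 2, the last being Vgll3 and Birc5. Array weights gave 1981 probe sets and 22 list genes, and the member count of 8 moved less. With the replicate number of the labels as a block, 592 probe sets and 3 member probe sets passed, the latter without Tead4, Ankrd1 at 1420991_at and Thbs1 at 1460302_at. Deviations of same-numbered arrays from their group means correlated at 0.364, 0.0961 and 0.00552, and 3 of 6 arrays correlated best with their own number. The main fit did not treat the numbers as pairs. Both arrays numbered 3 had the lower Dap spike signal, and shared processing of same-numbered arrays was not tested. Without 1 array the counts were 385 to 906, 2 to 6 and 5 to 14. Lowest were those without knockdown array 1, at 385, 2 and 5, and counts below the main 1094, 6 and 14 by over 1.5 times also came without control array 1 (449 probe sets, 7 list genes), control array 3 (632 probe sets), knockdown array 2 (507, 2 and 7) and knockdown array 3 (487, 2 and 7). The causes were not tested. Probe sets under an intensity of 16 on all arrays, such as those of Tead4, limit what can be said of those genes.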

Other observations

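The 4 probe sets of Ccn1 did not read alike on control array 3, whose Gapdh 5' to 3' ratio was 0.0992. The probe sets 1457823_at and 1442340_x_at, for which the annotation lists the same source sequence, read 85.8 and 76.0 there, the highest of the 6 arrays at each. The probe set 1438133_a_at read 74.1 on that array, its lowest, against 162 to 245 on the other 5. On the knockdown arrays 1438133_a_at varied little, at 166 ± 4.21 (SD, n = 3).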
